A study of Mus musculus with 6 samples.

Results

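The genes described here encode the proteasome of mouse cortical thymic epithelial cells (cTEC), including the immune catalytic subunits and β5t, the catalytic subunit made by cTEC. The 43 genes were chosen by name: the α and β subunits of the 20S core (*Psma1* to *Psma7* and *Psmb1* to *Psmb11*), the 19S cap (*Psmc1* to *Psmc6* and *Psmd1* to *Psmd14*), the activators *Psme1* to *Psme4* and the assembly factor *Pomp*. Each symbol matched 1 gene of the 39179 genes counted, and all 43 were among the 15576 genes with enough counts to be tested.

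RNA was sequenced from 2 sorted subsets of cTEC, *Cxcl12*DsRed- and *Cxcl12*DsRed+, to compare their transcriptomes. Both came from untreated *Cxcl12*::DsRed knock-in mice on a C57BL/6 background, in which the red fluorescent protein DsRed reports the *Cxcl12* gene. The mice were 10 weeks old. Both subsets lay within the same cTEC gate, CD45-EpCAM1+UEA1-Ly51+, and differed in the DsRed gate alone. There were 3 *Cxcl12*DsRed- libraries and 3 *Cxcl12*DsRed+ libraries, 1 of each from each of experiments A, B and C. The libraries are bulk samples, so fewer cells that contain a transcript and less of it per cell cannot be told apart. The experiments were sorted separately as biological replicates, but the number of mice behind each library was not given in the sources used here, and the p-values measure only the spread between these libraries.

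The proteasome is the barrel-shaped protease that degrades ubiquitin-tagged proteins, and the peptides it releases are loaded on MHC class I molecules. Its cutting is done by the subunits β1, β2 and β5, which cells exposed to interferon replace with the immune subunits β1i, β2i and β5i. In cTEC the β5 position can also be filled by β5t, encoded by *Psmb11*, a gene that is under the control of the transcription factor FOXN1 and that is required for normal positive selection of CD8 T cells.

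The 3 genes for the β5 position are shown by their promoters, since their use is the main comparison. *Psmb11* lies on chr14:54621433-54629556 on the plus strand of GRCm38 (mm10), and *Psmb5* lies on chr14:54614119-54618022 on the minus strand, 3410 bases away. *Psmb8* lies on chr17:34197721-34201454 on the plus strand, 9956 bases from *Psmb9*. The sequences below are RefSeq promoter windows on GRCm38.p6, 5′ to 3′ on the strand of the gene, with 250 bases before the annotated start and 50 after it (chr14:54625060-54625359 for *Psmb11*, chr14:54617946-54618245 for *Psmb5* and chr17:34197945-34198244 for *Psmb8*). Capitals mark the core of the FOXN1 motif, GACGC or its reverse strand GCGTC, in *Psmb11* and *Psmb8*, and the antioxidant-response motif TGACNNNGC, which the proteasome regulator NRF1 can bind, in *Psmb5*. The *Psmb11* and *Psmb8* windows lie inside the longer spans that the GENCODE annotation gives these genes.
Psmb11: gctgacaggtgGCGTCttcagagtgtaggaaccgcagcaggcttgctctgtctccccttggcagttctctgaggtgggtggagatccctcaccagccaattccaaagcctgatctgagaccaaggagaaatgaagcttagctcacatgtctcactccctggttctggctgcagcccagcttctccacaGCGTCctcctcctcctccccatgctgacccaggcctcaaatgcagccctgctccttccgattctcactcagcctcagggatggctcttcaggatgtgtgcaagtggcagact
Psmb5: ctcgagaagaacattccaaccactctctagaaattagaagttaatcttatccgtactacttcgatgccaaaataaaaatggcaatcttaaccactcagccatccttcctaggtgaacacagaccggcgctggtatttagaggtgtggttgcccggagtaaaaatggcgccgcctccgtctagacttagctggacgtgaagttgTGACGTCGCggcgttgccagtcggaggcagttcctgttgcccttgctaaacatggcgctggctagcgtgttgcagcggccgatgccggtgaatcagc
Psmb8: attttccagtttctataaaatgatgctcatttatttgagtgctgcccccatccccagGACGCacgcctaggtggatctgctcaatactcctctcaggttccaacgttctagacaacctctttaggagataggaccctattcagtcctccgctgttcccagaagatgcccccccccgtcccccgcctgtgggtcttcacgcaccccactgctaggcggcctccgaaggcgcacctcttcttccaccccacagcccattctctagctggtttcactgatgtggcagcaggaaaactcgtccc
Searched on both strands, GACGC was found 2 times in the *Psmb11* window and 1 time in the *Psmb8* window, and not in that of *Psmb5*. Of the 43 genes, 37 had a window in the table, and 18 of these 37 held GACGC, against 27.4% of 27025 windows of all genes. TGACNNNGC was in 6 of the 37 windows, among them those of *Psmb5* and *Psmb6*, and in 12.5% of all windows. The interferon-response motif, searched as a pair of GAAA set 2 bases apart, was in 4 of the 37 (*Psmb3*, *Psmd4*, *Psmd9* and *Psme1*) and in 3.49% of all windows. A match is a description of the letters and not a binding site.

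The libraries held between 34574900 and 51042679 counts in genes. Levels are given as CPM, the counts of a gene scaled to a common library size by the trimmed mean of M-values (TMM) and, unless stated, not divided by gene length. Reads of the DsRed reporter numbered 580 to 1129 in the *Cxcl12*DsRed- libraries and 45495 to 79903 in the *Cxcl12*DsRed+ libraries, so each library fitted its label. All 10 cTEC markers examined were lower in *Cxcl12*DsRed- cTEC without overlap (2 past the test, *Cxcl12* and *Prss16*). Their summed level was 2334 to 3005 CPM in *Cxcl12*DsRed- cTEC, against 9817 to 17750 CPM in *Cxcl12*DsRed+ cTEC. *Cxcl12* is the gene that the sorting reporter follows, so its difference was set by the sort and is no separate evidence. Its values, 144 to 287 CPM in *Cxcl12*DsRed- cTEC and 893 to 1473 CPM in *Cxcl12*DsRed+ cTEC, are part of these sums. The summed epithelial marker list overlapped (6395 to 10320 CPM in *Cxcl12*DsRed- cTEC and 5714 to 11460 CPM in *Cxcl12*DsRed+ cTEC), but 2 of its 5 genes, *Epcam* and *Cdh1*, were higher in every *Cxcl12*DsRed- library, with means of 197 and 858 CPM in *Cxcl12*DsRed- cTEC and 89.4 and 526 CPM in *Cxcl12*DsRed+ cTEC. Markers of other cell types also differed by subset: 12 of 12 tuft cell genes were higher in every *Cxcl12*DsRed- library (4 past the test, *Il25* at 0 in all *Cxcl12*DsRed+ libraries), with sums of 563 to 3157 CPM in *Cxcl12*DsRed- cTEC and 42.8 to 48.3 CPM in *Cxcl12*DsRed+ cTEC. Of 12 endothelial genes 11 were lower in every *Cxcl12*DsRed- library (1 past the test), with sums of 54.9 to 113 CPM in *Cxcl12*DsRed- cTEC and 754 to 5736 CPM in *Cxcl12*DsRed+ cTEC. Fibroblast genes summed to 3697 to 4795 CPM in *Cxcl12*DsRed- cTEC and to 1243 to 1862 CPM in *Cxcl12*DsRed+ cTEC (1 of 8 genes, *Dcn*, without overlap). *Dcn* made up most of these sums, with 3469, 3092 and 3118 CPM in *Cxcl12*DsRed- cTEC and 1491, 1512 and 633 CPM in *Cxcl12*DsRed+ cTEC. The other fibroblast genes overlapped, and *Pdgfrb* had the lower mean in *Cxcl12*DsRed- cTEC. The sums of medullary epithelial and thymocyte genes overlapped. Of the medullary genes, *Cd80* alone did not overlap, with 6.70, 14.9 and 1.82 CPM in *Cxcl12*DsRed- cTEC and 0.0189, 0 and 0 CPM in *Cxcl12*DsRed+ cTEC. *Cd80* did not pass the quasi-likelihood test, but DESeq2 and the likelihood ratio test called it.

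*Psmb11* differed most between the subsets of the 43 proteasome genes. It stood at 18, 51.2 and 13.6 CPM in *Cxcl12*DsRed- cTEC of experiments A, B and C, against 528, 1043 and 524 CPM in *Cxcl12*DsRed+ cTEC. The highest *Cxcl12*DsRed- library was thus far below the lowest *Cxcl12*DsRed+ library. The means were 27.6 ± 20.6 CPM and 698 ± 298 CPM (SD, n = 3 each), and the log2 fold change was -4.66 (SE 0.63, 95% interval -6.16 to -3.16), which is a 25.3-fold lower level (edgeR quasi-likelihood test, adjusted p = 0.0413). *Psmb11* was still present in *Cxcl12*DsRed- cTEC, with 779, 1683 and 553 counts.

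Of the 43 genes, *Psmb11* was the 1 gene that fell, and 0 rose, by the quasi-likelihood test with Benjamini-Hochberg adjustment over all 15576 genes at 0.05. Over all genes this test called 0.173% lower and 0.449% higher in *Cxcl12*DsRed- cTEC. With a positive log2 fold change, 1 of the 43 (*Psme1*) had an unadjusted p under 0.05, against 11.8% of all genes with either sign. The likelihood ratio test, DESeq2 and limma voom called 0 of the 43 higher, against 550, 704 and 3 of the 15576 genes. The call of *Psmb11* needed all 6 libraries: its log2 fold change stayed between -5.47 and -4.27 but its adjusted p was 0.159, 0.0845 and 0.0604 without the *Cxcl12*DsRed- library of experiment A, B or C, and 0.126, 0.153 and 0.0939 without the *Cxcl12*DsRed+ library of experiment A, B or C. Leaving out the library of experiment A or B from either subset left 0 of all genes called. With the limma voom fit the adjusted p of *Psmb11* was 0.0647 (log2 fold change -4.90).

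*Foxn1* itself stood at 83.0, 135 and 53.8 CPM in *Cxcl12*DsRed- cTEC and at 291, 276 and 156 CPM in *Cxcl12*DsRed+ cTEC, without overlap (log2 fold change -1.41, SE 0.40, adjusted p = 0.189), a difference that DESeq2 and the likelihood ratio test called. *Prss16*, which encodes a protease of cTEC, fell along with *Psmb11*, with 74.5, 163 and 153 CPM in *Cxcl12*DsRed- cTEC and 2412, 4193 and 2273 CPM in *Cxcl12*DsRed+ cTEC (fitted log2 fold change -4.51, SE 0.43, adjusted p = 0.0319). Its adjusted p lay between 0.0375 and 0.153 with 1 library left out, and was under 0.05 only without the *Cxcl12*DsRed- library of experiment C. The part of cell composition in the *Psmb11* difference was not tested.

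**Figure D1:**
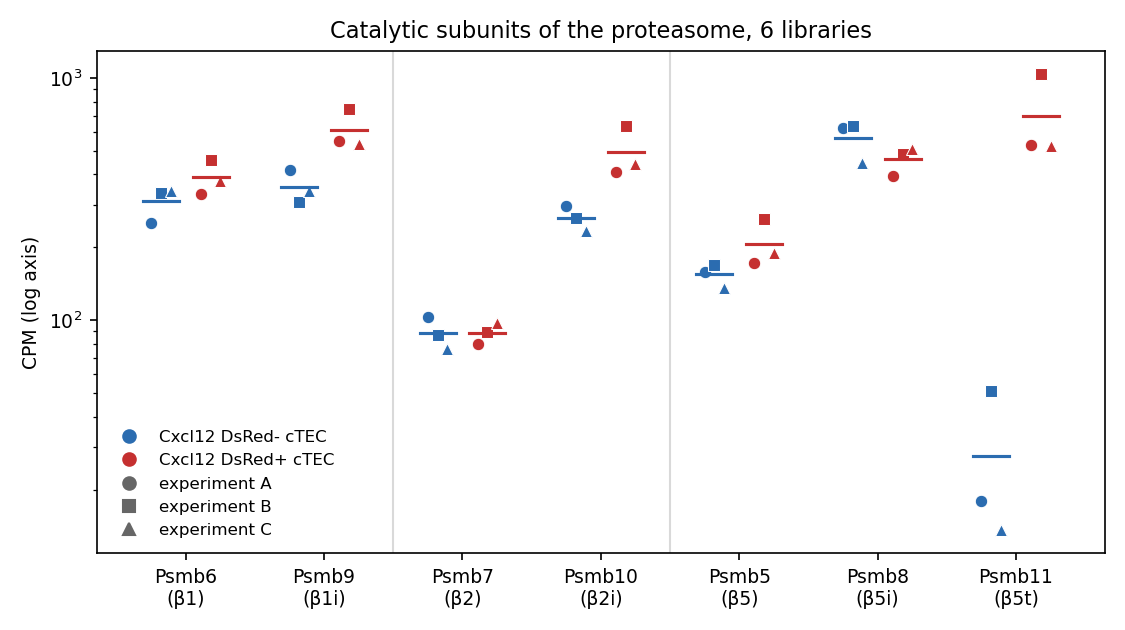
CPM (log axis) of the 7 catalytic subunits, with constitutive, immune and thymic genes grouped by site; each point is 1 library, the shape gives the experiment and the bar the mean of 3. *Psmb11* lies at 13.6 to 51.2 CPM in *Cxcl12*DsRed- cTEC and at 524 to 1043 CPM in *Cxcl12*DsRed+ cTEC, while the means of the other 6 genes differ by less than 2-fold, without overlap between the subsets for *Psmb5*, *Psmb9* and *Psmb10*.

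The other genes of the β5 position did not show a change of that size. *Psmb5*, the constitutive β5 subunit, stood at 159, 169.8 and 136 CPM in *Cxcl12*DsRed- cTEC and at 172, 261 and 189 CPM in *Cxcl12*DsRed+ cTEC. Each *Cxcl12*DsRed- library lay below each *Cxcl12*DsRed+ library by a small margin, and the gene did not pass the test (log2 fold change -0.42, SE 0.22, 95% interval -0.94 to 0.10, adjusted p = 0.546). *Psmb8*, the immune β5i subunit, stood at 625, 632 and 447 CPM in *Cxcl12*DsRed- cTEC and at 395, 487 and 511 CPM in *Cxcl12*DsRed+ cTEC. Here the subsets overlapped, since experiment C had the lower value in *Cxcl12*DsRed- cTEC (fitted log2 fold change 0.29, SE 0.21, 95% interval -0.20 to 0.79, adjusted p = 0.705). With 1 library left out, the log2 fold change lay between -0.58 and -0.23 for *Psmb5* (-0.23 without the *Cxcl12*DsRed+ library of experiment B) and between 0.14 and 0.43 for *Psmb8* (0.14 without that of experiment A).

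To compare the use of *Psmb5*, *Psmb8* and *Psmb11* within a library, counts were divided by the length of each gene's merged exons. *Psmb11* made up 1.03%, 2.77% and 0.991% of the β5 transcripts in *Cxcl12*DsRed- cTEC of experiments A, B and C, against 26.3%, 33.4% and 23.3% in *Cxcl12*DsRed+ cTEC. The shares did not overlap, at 1.6% ± 1.01 and 27.7% ± 5.2 (SD, n = 3 each), a difference of -26.1 percentage points. The exact two-sided permutation test over the 6 libraries gave p = 0.1, the smallest that 3 against 3 can give (adjusted p = 0.133 over the 4 site measures), and sign flips within the 3 experiments gave 0.25, also the smallest possible.

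The remaining share was split about evenly between the constitutive and the immune gene in *Cxcl12*DsRed- cTEC. *Psmb5* took 50.1% ± 2.47 in *Cxcl12*DsRed- cTEC and 45.0% ± 0.73 in *Cxcl12*DsRed+ cTEC, and *Psmb8* took 48.4% ± 2.24 and 27.4% ± 5.02 in the same order of subsets (SD, n = 3 each). Between the subsets the *Psmb8* share thus differed more than the *Psmb5* share. The shares are parts of 1 whole, so a larger *Psmb11* share makes the others smaller whatever their levels. In CPM, *Psmb8* overlapped between the subsets and *Psmb5* was higher in each *Cxcl12*DsRed+ library.

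The order of *Psmb5* and *Psmb8* depends on the length used, whereas that of the subsets for *Psmb11* and *Psmb8* does not. With the longest coding transcript in place of merged exons, *Psmb11* took 1.18% ± 0.75 in *Cxcl12*DsRed- cTEC and 23.6% ± 5.30 in *Cxcl12*DsRed+ cTEC. *Psmb8* then took 65.9% ± 2.01 and 42.6% ± 6.36 in these subsets, and *Psmb5* took 32.9% ± 2.13 and 33.9% ± 1.23, with overlap. In undivided counts *Psmb11* gave 2.24% (95% Clopper-Pearson interval 2.09 to 2.41%), 6.0% (5.73 to 6.29%) and 2.28% (2.10 to 2.48%) of the reads of these 3 genes in *Cxcl12*DsRed- cTEC, and 48.2% (47.8 to 48.6%), 58.2% (57.9 to 58.6%) and 42.8% (42.4 to 43.3%) in *Cxcl12*DsRed+ cTEC. These intervals cover counting error only, and reads made by PCR without molecular identifiers are not independent molecules.

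**Figure D2:**
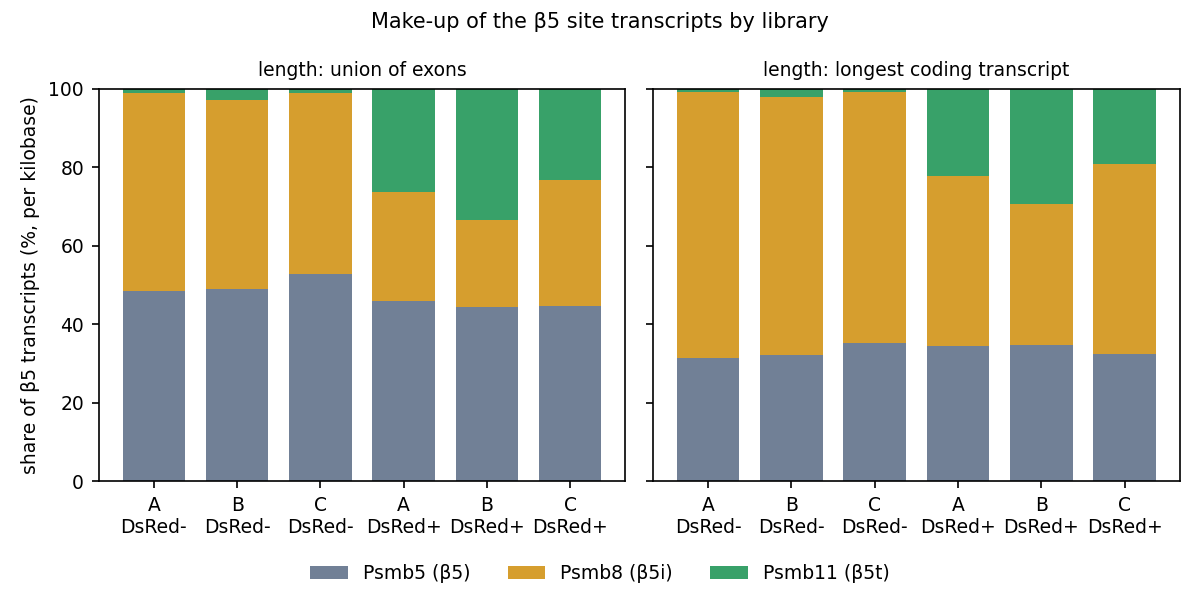
Share of β5 transcripts (%, counts per kilobase) from *Psmb5*, *Psmb8* and *Psmb11*, 1 stacked bar per library, with 2 measures of gene length (left, merged exons; right, longest coding transcript). The *Psmb11* segment is a thin edge of up to 2.77% in *Cxcl12*DsRed- cTEC and 23.3% to 33.4% in *Cxcl12*DsRed+ cTEC in the left panel.

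Summed over its genes, the β5 position held 346 ± 52.7 CPM per kilobase in *Cxcl12*DsRed- cTEC and 514 ± 123 CPM per kilobase in *Cxcl12*DsRed+ cTEC (SD, n = 3 each). The β1 position (*Psmb6* and *Psmb9*) held 263 ± 13.2 CPM per kilobase in *Cxcl12*DsRed- cTEC and 375 ± 65.5 in *Cxcl12*DsRed+ cTEC. The β2 position (*Psmb7* and *Psmb10*) held 181.5 ± 22.3 CPM per kilobase in *Cxcl12*DsRed- cTEC and 316 ± 71.7 in *Cxcl12*DsRed+ cTEC. With these lengths of merged exons, every *Cxcl12*DsRed- library lay below every *Cxcl12*DsRed+ library at each of the 3 positions. With the longest coding transcript in place of merged exons, the subsets overlapped at β5. These sums were not tested.

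None of the 3 immune subunits passed the quasi-likelihood test, and the subsets overlapped for *Psmb8* but not for the other two. *Psmb9*, the β1i subunit, stood at 418, 308 and 342 CPM in *Cxcl12*DsRed- cTEC, against 552, 747 and 536 CPM in *Cxcl12*DsRed+ cTEC. *Psmb10*, the β2i subunit, stood at 297, 265 and 234 CPM in *Cxcl12*DsRed- cTEC, against 409.6, 634 and 441 CPM in *Cxcl12*DsRed+ cTEC. Both were lower in all 3 *Cxcl12*DsRed- libraries than in the *Cxcl12*DsRed+ libraries, whereas *Psmb8* was higher in *Cxcl12*DsRed- cTEC of experiments A and B. *Psmb9* had a log2 fold change of -0.78 (SE 0.21, 95% interval -1.29 to -0.27, adjusted p = 0.177), and *Psmb10* of -0.90 (SE 0.22, 95% interval -1.43 to -0.37, adjusted p = 0.139). With DESeq2 both were called lower (adjusted p = 0.0335 for *Psmb9* and 0.0140 for *Psmb10*), while edgeR's likelihood ratio test called neither (adjusted p = 0.129 and 0.0601).

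*Psmb9* and *Psmb8* are neighbours in the MHC region. The log2 ratio of *Psmb8* to *Psmb9* per kilobase, a ratio chosen after the values were seen and so not tested, was 0.69, 1.15 and 0.50 in *Cxcl12*DsRed- cTEC and -0.37, -0.50 and 0.05 in *Cxcl12*DsRed+ cTEC. The subsets did not overlap in it. *Psmb9* overlaps *Tap1* on the other strand, and the library kit does not mark strand, so reads from the overlap cannot be told apart. *Tap1*, a subunit of the peptide transporter of the endoplasmic reticulum, stood at 266, 604 and 261 CPM in *Cxcl12*DsRed- cTEC and at 451, 403 and 255 CPM in *Cxcl12*DsRed+ cTEC.

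Leukocytes are rich in immune subunits, so their markers are given beside these 3 genes. The leukocyte marker *Ptprc* stood at 23.5, 8.55 and 4.03 CPM in *Cxcl12*DsRed- cTEC and at 8.51, 15.6 and 0.619 CPM in *Cxcl12*DsRed+ cTEC, with overlap. The 12 markers of other leukocytes summed to 143 to 868 CPM in *Cxcl12*DsRed- cTEC and to 23.4 to 88.6 CPM in *Cxcl12*DsRed+ cTEC, with 3 of the 6 that were tested above in every *Cxcl12*DsRed- library. The 12 thymocyte markers summed to 104, 112 and 45.5 CPM in *Cxcl12*DsRed- cTEC and to 90.4, 317 and 38.1 CPM in *Cxcl12*DsRed+ cTEC. The sum was highest in the *Cxcl12*DsRed+ library of experiment B, where *Psmb9* and *Psmb10* were also highest. So were *Psmb5*, *Psmb6* and *Psmb11*, which are not immune subunits. In contrast, *Psmb7* and *Psmb8* were each highest in a *Cxcl12*DsRed- library. The part of such cells in the values of the immune subunits was not tested.

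Neither constitutive partner passed the test. *Psmb6*, the β1 subunit, stood at 253, 334 and 342 CPM in *Cxcl12*DsRed- cTEC and at 332, 459.8 and 376 CPM in *Cxcl12*DsRed+ cTEC (fitted log2 fold change -0.33, SE 0.21, adjusted p = 0.643). *Psmb7*, the β2 subunit, stood at 103, 86.7 and 76.0 CPM in *Cxcl12*DsRed- cTEC and at 80.1, 89.2 and 97.4 CPM in *Cxcl12*DsRed+ cTEC (fitted log2 fold change -0.01, SE 0.20, 95% interval -0.49 to 0.47, adjusted p = 0.996). Both genes overlapped between the subsets.

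The ratio of immune to constitutive subunit was then compared at each position. At β5, *Psmb8* per *Psmb5* was 1.05, 0.989 and 0.872 in *Cxcl12*DsRed- cTEC and 0.608, 0.497 and 0.719 in *Cxcl12*DsRed+ cTEC, without overlap and higher in *Cxcl12*DsRed- cTEC of each experiment. At β2, *Psmb10* per *Psmb7* was 5.80, 6.13 and 6.18 in *Cxcl12*DsRed- cTEC and 10.3, 14.3 and 9.09 in *Cxcl12*DsRed+ cTEC, without overlap and lower in *Cxcl12*DsRed- cTEC of each experiment. At β1, *Psmb9* per *Psmb6* was 0.847, 0.471 and 0.511 in *Cxcl12*DsRed- cTEC and 0.85, 0.831 and 0.729 in *Cxcl12*DsRed+ cTEC, also lower in each experiment, but the subsets overlapped because experiment A had nearly equal values. The difference at β5 thus had the opposite sign to those at β1 and β2, and whether the positions differ was not tested.

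On the log2 scale the β5 ratio was -0.05 ± 0.13 in *Cxcl12*DsRed- cTEC and -0.73 ± 0.27 in *Cxcl12*DsRed+ cTEC, a difference of 0.68 (exact permutation p = 0.1, adjusted 0.133). The β2 ratio was 2.59 ± 0.05 and 3.46 ± 0.34 in these subsets, a difference of -0.87 (exact permutation p = 0.1, adjusted 0.133). The β1 ratio was -0.76 ± 0.46 and -0.32 ± 0.12, a difference of -0.45 (exact permutation p = 0.3, adjusted 0.3; SD, n = 3 each throughout). With 0.1 the smallest p of this design, none of the 3 could reach 0.05. Leaving out 1 library moved the β1 difference to -0.71 (without the *Cxcl12*DsRed- library of experiment A) or -0.28 (without that of experiment B), while the β5 difference stayed between 0.55 and 0.81 and the β2 difference between -1.0 and -0.68.

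The ratios themselves depend on the length measure, though their differences on the log2 scale do not. With the longest coding transcript, *Psmb8* per *Psmb5* was 1.81 to 2.17 in *Cxcl12*DsRed- cTEC and 1.03 to 1.49 in *Cxcl12*DsRed+ cTEC. *Psmb10* per *Psmb7* was then 2.56 to 2.73 in *Cxcl12*DsRed- cTEC and 4.01 to 6.29 in *Cxcl12*DsRed+ cTEC. The order of *Psmb5* and *Psmb8* changed with the measure in each *Cxcl12*DsRed+ library and in the *Cxcl12*DsRed- libraries of experiments B and C. Whether such a library held more *Psmb5* or more *Psmb8* is therefore not settled by these ratios.

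**Figure D3:**
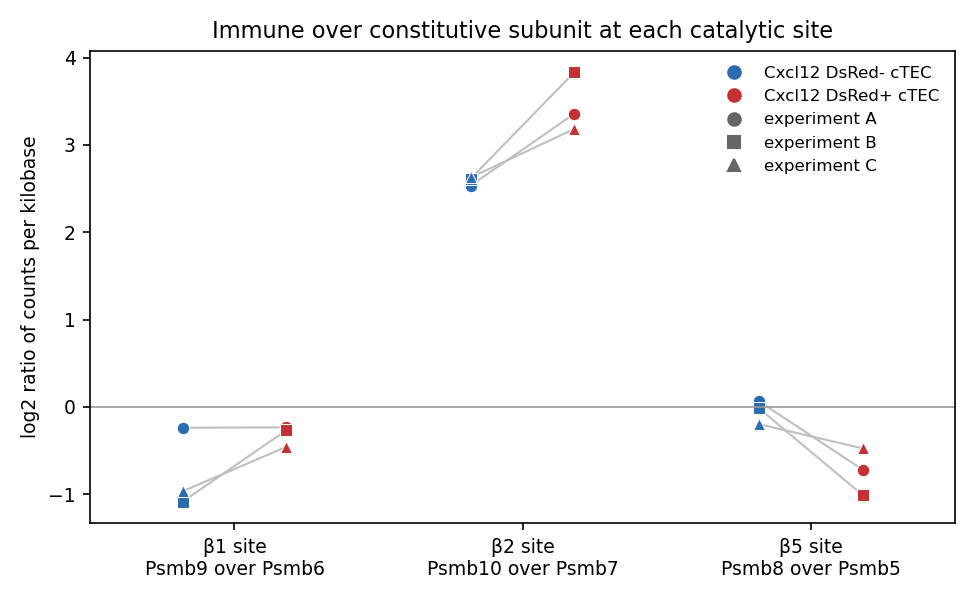
Log2 ratio of the immune to the constitutive subunit (counts per kilobase) at the β1, β2 and β5 positions, with grey lines joining the 2 libraries of an experiment. The lines go up towards *Cxcl12*DsRed+ cTEC at β2 and β1 (nearly level at β1 in experiment A) and down at β5, where the difference is 0.68.

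The 11 shared subunits of the 20S core had negative log2 fold changes throughout, with none past the quasi-likelihood or the likelihood ratio test. An unadjusted p under 0.05 was found for 3 of them, against 11.8% of all genes tested. DESeq2 called 1 lower, against 2.42% of all genes tested. Over all genes the quasi-likelihood test called 0.173% lower and the likelihood ratio test 2.12%. The 7 α subunits, which form the outer rings and the gate of the barrel, had a median log2 fold change of -0.29, and the 4 structural β subunits *Psmb1* to *Psmb4* had a median of -0.45. Over the 11 the median was -0.31 and the adjusted p lay between 0.124 and 0.974, against a median of 0.02 over all 15576 genes, of which 48.7% were negative.

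*Psma5*, the α5 subunit, had the smallest p of these. It stood at 125, 129 and 142 CPM in *Cxcl12*DsRed- cTEC and at 213, 223 and 199.0 CPM in *Cxcl12*DsRed+ cTEC. The 3 libraries of each subset lay close together and the subsets did not overlap (log2 fold change -0.68, SE 0.16, 95% interval -1.06 to -0.29, adjusted p = 0.124). DESeq2 called it lower (adjusted p = 0.00686). At the other end of the α ring, *Psma4* stood at 195, 216 and 172 CPM in *Cxcl12*DsRed- cTEC and at 193, 209 and 194 CPM in *Cxcl12*DsRed+ cTEC (fitted log2 fold change -0.03, adjusted p = 0.974).

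Among the structural β subunits, *Psmb2* stood at 238, 243 and 266 CPM in *Cxcl12*DsRed- cTEC and at 295, 368 and 402 CPM in *Cxcl12*DsRed+ cTEC (fitted log2 fold change -0.51, SE 0.18, adjusted p = 0.317). *Psmb4* stood at 172, 185 and 171 CPM in *Cxcl12*DsRed- cTEC and at 216, 326 and 239 CPM in *Cxcl12*DsRed+ cTEC (fitted log2 fold change -0.56, SE 0.21, adjusted p = 0.334). Neither gene overlapped between the subsets. *Psmb1*, with 293, 374 and 308 CPM in *Cxcl12*DsRed- cTEC and 339, 472 and 397 CPM in *Cxcl12*DsRed+ cTEC, did overlap (log2 fold change -0.31, adjusted p = 0.651).

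The 19S cap, which recognises and unfolds ubiquitin-tagged proteins, differed less than the core in its median. Of its 20 genes 17 had a negative log2 fold change, and the median was -0.14. None passed the test (adjusted p 0.507 to 0.997), had an unadjusted p under 0.05 or was called by DESeq2 or the likelihood ratio test. Of all 15576 genes tested, 11.8% had such an unadjusted p, DESeq2 called 1081 and the likelihood ratio test called 880. The 6 ATPases, which unfold the substrate, had 4 negative and 2 positive values with a median of -0.07, and the 14 non-ATPases had 13 negative values with a median of -0.16. Whether the core and the cap differ from each other was not tested.

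The ends of the range in the cap were modest. *Psmc2* had the smallest p and the lowest value of the ATPases, with 226, 234 and 199.5 CPM in *Cxcl12*DsRed- cTEC and 232, 259 and 267 CPM in *Cxcl12*DsRed+ cTEC (fitted log2 fold change -0.20, adjusted p = 0.75). *Psmc6* had the highest, with 114, 96.9 and 109.8 CPM in *Cxcl12*DsRed- cTEC and 89.6, 85.6 and 124 CPM in *Cxcl12*DsRed+ cTEC (fitted log2 fold change 0.10, adjusted p = 0.939). Both genes overlapped between the subsets.

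Among the non-ATPases, *Psmd7*, a scaffold partner of the deubiquitinase *Psmd14*, had the lowest value. It stood at 226, 155 and 182 CPM in *Cxcl12*DsRed- cTEC and at 242, 276 and 232 CPM in *Cxcl12*DsRed+ cTEC, just without overlap (log2 fold change -0.42, adjusted p = 0.507). *Psmd10*, which encodes the cap assembly chaperone gankyrin, had the highest, with 70.4, 72.8 and 46.3 CPM in *Cxcl12*DsRed- cTEC and 48.4, 59.1 and 53.6 CPM in *Cxcl12*DsRed+ cTEC (fitted log2 fold change 0.23, adjusted p = 0.838).

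*Psme1* was the 1 gene for which all 3 *Cxcl12*DsRed- values exceeded all 3 *Cxcl12*DsRed+ values. It encodes PA28α, which with PA28β (*Psme2*) forms the interferon-inducible activator that caps the core in place of the 19S complex. *Psme1* stood at 304, 271 and 263 CPM in *Cxcl12*DsRed- cTEC and at 119, 146 and 239 CPM in *Cxcl12*DsRed+ cTEC (fitted log2 fold change 0.73, SE 0.28, 95% interval 0.07 to 1.40, adjusted p = 0.363). The margin was small in experiment C and the gene did not pass the test. *Psme1* also overlaps *Emc9* on the other strand, and reads from the overlap cannot be assigned by strand.

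Its partner *Psme2*, named after its values were seen, stood at 291, 435 and 303 CPM in *Cxcl12*DsRed- cTEC and at 268, 354 and 352 CPM in *Cxcl12*DsRed+ cTEC (fitted log2 fold change 0.08, 95% interval -0.46 to 0.62, adjusted p = 0.956). The log2 ratio of *Psme1* to *Psme2* per kilobase, a ratio also chosen after the values were seen, was -0.26, -1.01 and -0.53 in *Cxcl12*DsRed- cTEC and -1.49, -1.6 and -0.89 in *Cxcl12*DsRed+ cTEC, with overlap. *Psme2* has a near-identical processed copy in the mouse genome, so its count is uncertain. *Pomp*, the chaperone needed to assemble the core, stood at 205, 196 and 176 CPM in *Cxcl12*DsRed- cTEC and at 188, 281 and 250 CPM in *Cxcl12*DsRed+ cTEC, with overlap (log2 fold change -0.32, adjusted p = 0.650).

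**Figure D4:**
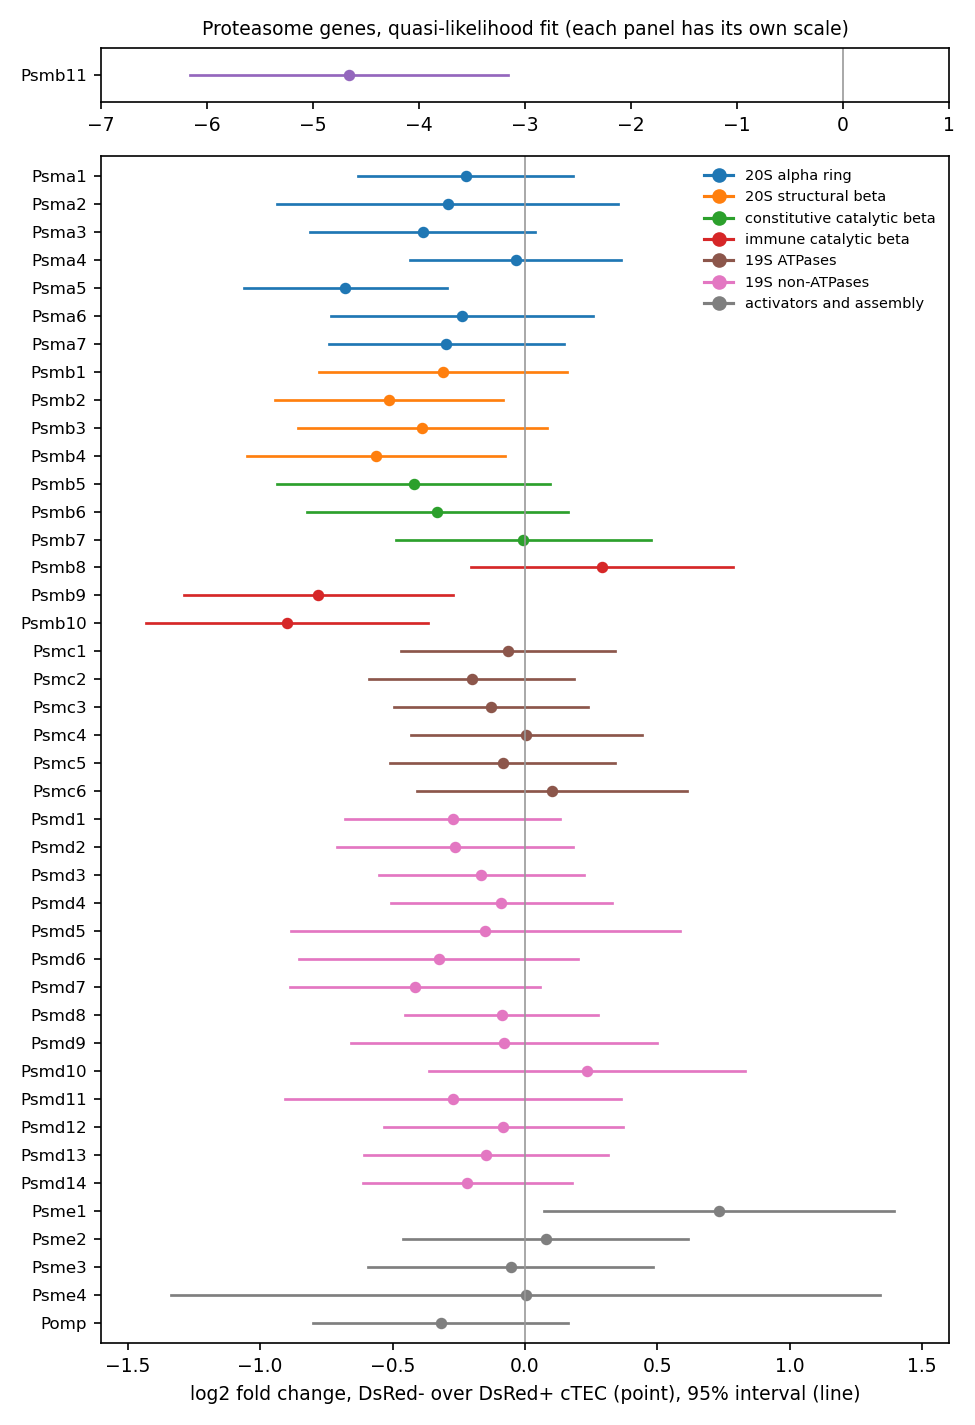
Log2 fold change of *Cxcl12*DsRed- over *Cxcl12*DsRed+ cTEC with its 95% interval for the 43 genes, coloured by role; *Psmb11* has a panel and a scale of its own. Apart from *Psmb11*, the points lie between -0.90 (*Psmb10*) and 0.73 (*Psme1*), and 36 of the 43 lie below 0.

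Leaving *Psmb11* aside, 38 of the other 42 genes differed by less than 1.5-fold, and for 36 of them the 95% interval lay within 2-fold in either direction. The median half-width of the interval was 0.47 on the log2 scale. It was widest, at 1.34, for *Psme4*, which encodes the activator PA200 and ranged between 8.85 and 33.9 CPM over the 6 libraries. These intervals are for 1 gene at a time and are not adjusted for the number of genes tested. With 3 libraries a subset, larger differences than these half-widths could also fail the quasi-likelihood test. Examples were *Psmb10* (log2 fold change -0.90, adjusted p = 0.139) and, outside the 43 genes, *Foxn1* (-1.41, adjusted p = 0.189). A gene that was not called is thus not shown to be unchanged.

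Taken by direction, 36 of the 43 genes (83.7%) had a negative log2 fold change, with a median of -0.22. These genes share libraries and are not independent of each other, so no test was made over them. The other 42 genes without *Psmb11* had 26 lower values in *Cxcl12*DsRed- cTEC of experiment A (median log2 ratio -0.08), 32 in experiment B (median -0.24) and 37 in experiment C (median -0.31). The medians over all genes were 0, -0.03 and 0.02 in these experiments. Of the 42, 21 were lower and 1 was higher in *Cxcl12*DsRed- cTEC of all 3 experiments, against 17.5% of all genes tested in each direction.

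Counts at looser thresholds were as follows. An unadjusted p under 0.05 was found for 7 of the 43 genes (16.3%), namely *Psmb11*, *Psma5*, *Psmb10*, *Psmb9*, *Psmb2*, *Psmb4* and *Psme1*, against 11.8% of all genes tested. Every *Cxcl12*DsRed- library lay below every *Cxcl12*DsRed+ library for 12 of the 43 (27.9%), against 9.32% of all genes, and above for 1 of the 43, against 9.73% of all genes. DESeq2 called 4 of the 43 lower (*Psmb11*, *Psma5*, *Psmb9* and *Psmb10*), against 2.42% of all genes. The likelihood ratio test called *Psmb11* alone lower, against 2.12% of all genes.

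**Figure D5:**
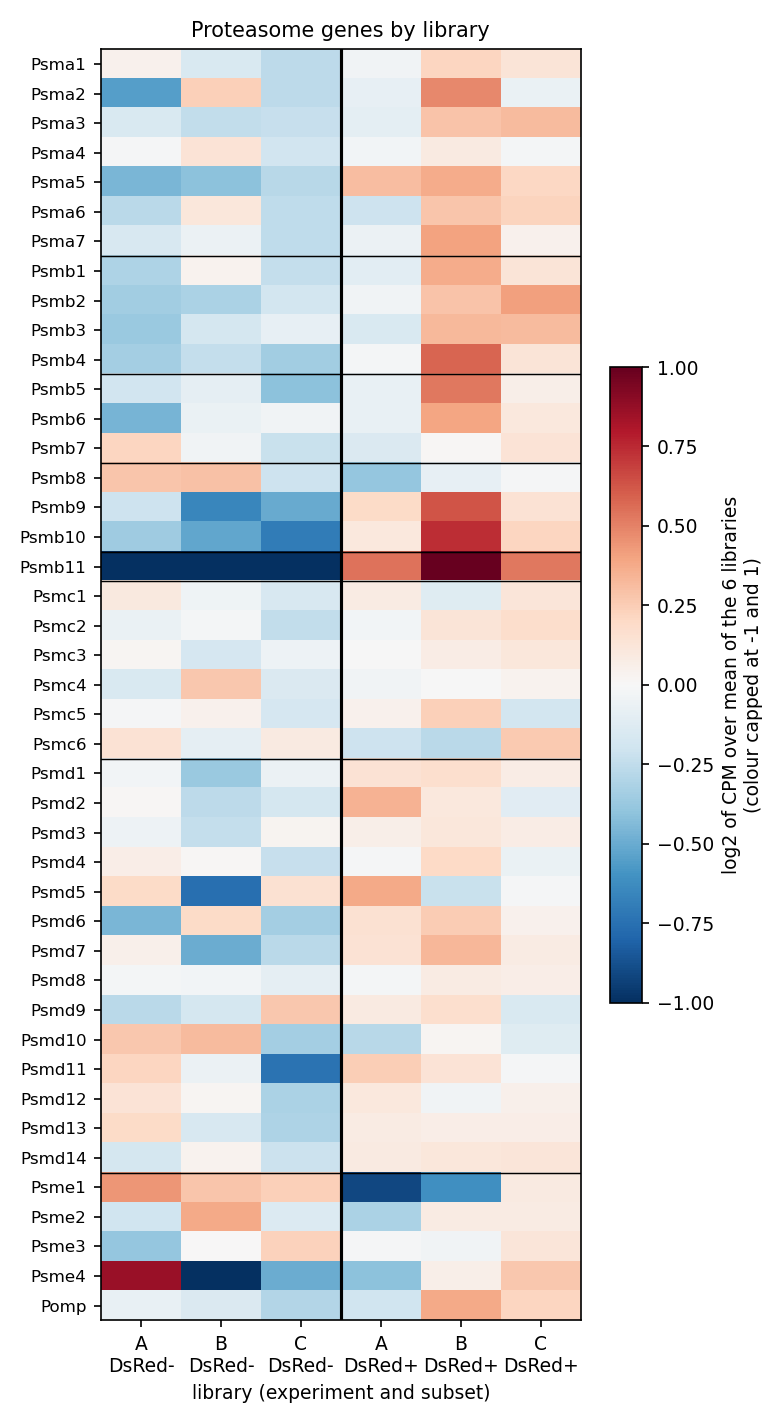
Log2 of each gene's CPM over its mean in the 6 libraries, for the 43 genes by role (rows) and the 6 libraries (columns), with colour capped at -1 and 1. The *Psmb11* row is at the lower cap in all 3 *Cxcl12*DsRed- libraries, and the 20S rows are mostly below their mean in *Cxcl12*DsRed- cTEC. In *Cxcl12*DsRed+ cTEC the 20S rows are mostly above their mean in experiments B and C, most of all in B. In the *Cxcl12*DsRed+ library of experiment A they are mostly below it.

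Other genes of proteasome assembly and function were a list of 24, with the assembly chaperones *Psmg1* to *Psmg4* and the transcription factor *Nfe2l1* (NRF1). Of the 22 tested, none passed the test, had an unadjusted p under 0.05 or was called by DESeq2 or the likelihood ratio test. Of all 15576 genes tested, 11.8% had such a p, DESeq2 called 1081 and the likelihood ratio test called 880. Of the 22 genes, 14 had a negative log2 fold change, with a median of -0.12. *Ubqln1*, a shuttle for ubiquitin-tagged proteins, had the smallest p, with 19.1, 25.4 and 27.4 CPM in *Cxcl12*DsRed- cTEC and 33.4, 43 and 36.6 CPM in *Cxcl12*DsRed+ cTEC (fitted log2 fold change -0.65, adjusted p = 0.428). *Psmf1*, the inhibitor PI31, stood at 106, 133 and 93.1 CPM in *Cxcl12*DsRed- cTEC and at 81.5, 84.2 and 86.4 CPM in *Cxcl12*DsRed+ cTEC (fitted log2 fold change 0.40, adjusted p = 0.538). Neither gene overlapped between the subsets.

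The regulators of the immune subunits, 13 genes of the interferon pathway, had a median log2 fold change of -0.03, with none past the test. DESeq2 and the likelihood ratio test called 0 of them, against 1081 and 880 of all 15576 genes tested. Of the 13, 1 had an unadjusted p under 0.05, against 11.8% of all genes tested. *Ifngr1*, the interferon-γ receptor chain, stood at 101, 124 and 115 CPM in *Cxcl12*DsRed- cTEC and at 141, 146 and 249 CPM in *Cxcl12*DsRed+ cTEC, without overlap (log2 fold change -0.66, adjusted p = 0.399). The difference of *Ifngr1* was largest in experiment C.

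The 12 genes that trim or transport peptides for MHC class I had a median of -0.05, with none past the test. DESeq2 and the likelihood ratio test called 0 of them, against 1081 and 880 of all 15576 genes tested. Of the 12, 1 had an unadjusted p under 0.05, against 11.8% of all genes tested. *Lap3*, an aminopeptidase, stood at 146, 196 and 106 CPM in *Cxcl12*DsRed- cTEC and at 83.0, 91.4 and 109 CPM in *Cxcl12*DsRed+ cTEC (fitted log2 fold change 0.66, adjusted p = 0.398). *Tap2*, the other subunit of the peptide transporter, stood at 424, 413 and 322 CPM in *Cxcl12*DsRed- cTEC and at 509, 429.8 and 449 CPM in *Cxcl12*DsRed+ cTEC (fitted log2 fold change -0.26, adjusted p = 0.690). *Lap3* overlapped between the subsets and *Tap2* did not, by a margin of a few CPM.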

How the data were processed

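The deposited table holds read counts per gene for the 6 libraries: per the labels and the study's methods, the authors made libraries with the SMARTer Ultra Low Input RNA Kit, removed adapters (Trimmomatic 0.36), mapped the reads to the mm10 genome (STAR 2.7.3a) and assigned them to genes (HTSeq). The annotation release and strand setting were not given in the sources used here. Spike-in entries (92), HTSeq summary entries (5) and the reporter entry entered neither library sizes nor tests. Relative to counts in genes, reads in no feature amounted to 5.88 to 9.35%, ambiguous reads to 1.21 to 1.38% and multi-mapped reads to 5.61 to 9.07%. Of the 43 genes, 19 overlap a gene on the other strand, among them *Psmb7*, *Psmb8*, *Psmb9*, *Psmb10* and *Psme1*.

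Counts of all genes were fitted with edgeR 4.0.16 (R 4.3.3; filterByExpr with a minimum count of 10, TMM, quasi-likelihood test, two-sided, prior count 0.125, Benjamini-Hochberg threshold 0.05). Alternatives were a likelihood ratio test, DESeq2 1.42.0, limma 3.58.1 voom, other scalings and filters, the experiment as a replicate block, and leaving out libraries. The experiment named in the titles pairs the libraries, and deviations from the subset means correlated at 0.0106, 0.0778 and 0.0716 within experiments A, B and C and at -0.0948 to 0.00374 between them. Site measures were tested with SciPy 1.17.1 by exact permutation. The edgeR fit was also run on counts simulated with its own dispersions. These counts held no effect of experiment or cell composition, so the run does not bear on such effects. Gene lengths and positions come from the GENCODE annotation of the same genome (GRCm38).

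Values in each library are given for the 7 catalytic subunits, other genes past the threshold, and in each role the smallest p and the highest and lowest fold change, with at most 4 from each list of other genes. *Psme2*, *Foxn1*, *Prss16*, *Tap1* and *Ptprc* were named beside these. The genes and lists were chosen with earlier results of these data known.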

Additional observations from a re-analysis of the deposited data

How the results depend on the processing

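The 97 genes called over all genes became 880 with the likelihood ratio test, 1060 with the likelihood ratio test and a replicate block, 1081 with DESeq2, 4 with limma voom and 168 without a filter, and lay between 0 and 139 when libraries were left out (139 without the *Cxcl12*DsRed- library of experiment C, and 35 without both libraries of that experiment). Proteasome genes called numbered 4 with DESeq2 and 0 with limma voom, and 0 to 0 with libraries left out, while 2 to 10 then had an unadjusted p under 0.05. The quasi-likelihood fit with the replicate block, that is with the libraries paired by experiment, called 73 genes and 1 proteasome gene, *Psmb11* (log2 fold change -4.83, adjusted p = 0.0205), and changed no other proteasome call. Of the 43 genes, 12 that were not called and had a log2 fold change between -0.15 and 0.10 took both signs over the alternatives. Of those described by library these were *Psma4* (-0.12 to 0.042 with libraries left out), *Psmb7* (1.6e-04 with DESeq2, 6.9e-05 with size factors of the relative log expression kind, -0.23 to 0.13 with libraries left out), *Psmc6* (-0.050 to 0.25) and *Psme2* (-0.13 to 0.19), and the others were *Psmc1*, *Psmc4*, *Psmc5*, *Psmd5*, *Psmd9*, *Psmd12*, *Psme3* and *Psme4* (-0.95 to 0.37 for *Psme4*). The cause of these changes was not tested. The proteasome genes had at least 8.85 CPM in each library, and 3 libraries a subset limited the precision of their fold changes.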
